A study of Mus musculus with 12 samples.

Results

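Npy, Syngr1, Eno2 and Kif1a are 4 genes best known from neurons, and all 4 gave more signal in alveolar macrophages of mice exposed to carbon nanotubes than in those of control mice. They are 4 of the 19057 genes that the array's annotation names. They were chosen for this increase in the same 12 arrays, so their difference between the groups is described here with no test. The annotation gives them 8 of the array's 45281 probes, 1 for Npy, 4 for Syngr1, 1 for Eno2 and 2 for Kif1a.

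RNA came from C57Bl/6 mice, with 1 mouse per array and 6 arrays in each group, on the Illumina Mouse WG-6 v2 BeadChip. Control mice received 35% surfactant in saline by oropharyngeal instillation, and the other mice received that vehicle with 100 µg of multiwalled carbon nanotubes, hereafter MWCNT. Alveolar macrophages, the phagocytes of the airspaces, were recovered by lavage on day 60, with a stated purity over 90%. The labels used here give neither age nor sex, and the title names the model as chronic granulomatous inflammation.

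Neuropeptide Y, the product of Npy, is a secreted peptide of sympathetic nerves and brain neurons that acts on G protein-coupled Y receptors, which some immune cells also carry. Syngr1 encodes synaptogyrin-1, a membrane protein of synaptic vesicles. Eno2 encodes neuron-specific enolase, a glycolytic enzyme used as a neuronal and neuroendocrine marker, and Kif1a encodes a kinesin-3 motor that carries synaptic vesicle precursors along axons. Many neuronal genes are kept silent in other cells by the repressor REST and its corepressors.

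The 250 bases before each gene's annotated start are printed because all 4 genes were higher after MWCNT and this window can be compared between them. Sequences are those of RefSeq on mouse GRCm38.p6, 5′ to 3′ on the gene's strand, and capitals mark every match to 10 short motifs searched on both strands. The windows are chr6:49822460-49822709 on the plus strand for Npy, chr15:80091084-80091333 on the plus strand for Syngr1, chr6:124769674-124769923 on the minus strand for Eno2, and chr1:93101875-93102124 on the minus strand for the outer start of Kif1a.
Npy: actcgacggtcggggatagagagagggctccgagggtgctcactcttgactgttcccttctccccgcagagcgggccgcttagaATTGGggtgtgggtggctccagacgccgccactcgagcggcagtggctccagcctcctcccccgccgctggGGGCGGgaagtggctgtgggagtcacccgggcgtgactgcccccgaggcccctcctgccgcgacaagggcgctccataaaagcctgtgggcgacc
Syngr1: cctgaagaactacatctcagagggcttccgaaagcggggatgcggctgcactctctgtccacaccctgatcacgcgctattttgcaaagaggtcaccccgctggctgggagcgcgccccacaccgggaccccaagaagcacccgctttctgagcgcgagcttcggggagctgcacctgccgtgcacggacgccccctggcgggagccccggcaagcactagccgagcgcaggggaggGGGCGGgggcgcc
Eno2: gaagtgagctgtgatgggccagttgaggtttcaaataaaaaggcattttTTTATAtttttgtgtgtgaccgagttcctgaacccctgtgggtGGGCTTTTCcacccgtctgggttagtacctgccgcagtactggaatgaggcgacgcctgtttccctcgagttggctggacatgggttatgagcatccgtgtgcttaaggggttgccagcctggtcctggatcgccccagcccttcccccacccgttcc
Kif1a: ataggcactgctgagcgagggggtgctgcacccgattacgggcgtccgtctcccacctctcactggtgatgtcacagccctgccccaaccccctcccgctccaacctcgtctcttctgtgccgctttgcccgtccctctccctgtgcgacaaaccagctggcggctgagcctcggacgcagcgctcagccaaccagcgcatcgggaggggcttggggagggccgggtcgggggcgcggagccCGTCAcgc
The motifs were the TATA box (TATAAA), the CCAAT box (CCAAT), the GC box (GGGCGG), the cAMP response element (TGACGTCA) and its core (TGACG), the AP-1 element (TGANTCA), the E-box (CACGTG), an NF-kB element (GGGNNTTTC), and both parts of the RE1 element bound by REST (TTCAGCACC and GGACAGNGC). The core TGACG lies inside the full cAMP response element, so a match to the full element is also a match to the core.

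The GC box was the motif found before more than 1 of the 4 starts. It lay 95 bases before the start of Npy and 13 bases before that of Syngr1, and 35.7% of 32851 RefSeq windows of 300 bases hold it. Npy also held a CCAAT box on the opposite strand 166 bases before its start, a motif found in 37.4% of windows. Eno2 held TATAAA on the opposite strand 201 bases before its start (13.6% of windows) and the NF-kB letters 158 bases before it (4.36% of windows). The outer start of Kif1a had TGACG on the opposite strand 8 bases before it and again 8 bases after it (20.8% of windows), and its inner start, at chr1:93082481-93082730, had an E-box 116 bases before it (7.15% of windows). Neither part of RE1 (0.371% and 1.91% of windows), nor the full cAMP response element (1.79%) or the AP-1 element (7.81%), was found in these 5 windows. A match is only a match of letters, and the windows differed in G and C content from 50.8% at the inner start of Kif1a to 69.2% for Npy.

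Levels below are log2 intensities after background correction and quantile normalization, and a probe counts as detected on an array where its deposited detection p-value is under 0.05. Between 38.03% and 39.33% of probes were detected on control arrays and between 39.12% and 40.53% on MWCNT arrays. Of the 19057 named genes, 10143 were measured, that is, detected on at least 3 arrays by at least 1 probe. The share of all genes detected on no array was not computed, so the counts of undetected genes below have no such share beside them. The background signal was 129.2 to 145.6 on control arrays and 140.3 to 166.7 on MWCNT arrays. MWCNT arrays 5 and 6 stood apart from the other 10 arrays. On these arrays 3 of 4 Y-linked genes were detected, against at most 1 elsewhere, at a stricter detection cutoff than the one above. Xist, the transcript of the inactive X chromosome, was at most 5.26 against at least 10.76 elsewhere. The levels of the 4 genes, their correlations and the count of related genes are therefore given with and without them. The labels name no chip or scan batch, and none was tested.

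The label of macrophage was checked against its markers. Of 17 markers of resident alveolar macrophages on the array, 12 were measured, and each of these was detected on all control arrays. Siglecf, Fabp4, Fabp1, Atp6v0d2 and Olr1 were detected on no array.

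Npy was below detection on every control array and detected on every MWCNT array. Its single probe, ILMN_2946520, had levels from 4.66 to 4.93 in controls, with a median of 4.78. On MWCNT arrays 1 to 6 the levels were 9.77, 9.003, 8.89, 9.33, 6.80 and 8.20. No control array reached the lowest MWCNT array, array 5. In the scanner's own units the probe gave 132.9 to 147.6 in controls and 229.2 to 1244.9 after MWCNT. The group means were 4.80 ± 0.11 and 8.67 ± 1.05 (SD, n = 6 each), a difference of 3.87 ± 0.38 (SE) on the log2 scale. Because the control level is not well above background, only a bound holds for the fold, which was at least 9.20. This bound sets the MWCNT mean against the mean, over control arrays, of the higher of the probe's own level and the lowest level of any detected probe. Like the bounds given below, it applies to the background-corrected levels, and without that correction the log2 difference of Npy was 1.89. Without MWCNT arrays 5 and 6, the mean of the 4 remaining arrays was 9.25 ± 0.40 and the difference 4.45. The arrays measured RNA in bulk, so more cells holding a transcript and more of it per cell cannot be told apart.

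Syngr1 had a low but mostly detectable level in controls. Its brightest probe, ILMN_3101732, was detected on 5 of 6 control arrays, with levels from 5.37 to 6.11 and a median of 5.75. On MWCNT arrays 1 to 6 the levels were 10.35, 9.55, 10.04, 10.22, 7.49 and 8.97. As for Npy, the groups did not overlap, array 1 was the highest and array 5 the lowest. The means were 5.76 ± 0.28 and 9.44 ± 1.08 (SD, n = 6 each), a 12.8-fold difference (3.68 ± 0.40 SE, log2). Without arrays 5 and 6 the difference was 4.28. The control level lay near the detection limit, so the fold depends on the background correction. Over all 12 arrays the log2 difference was 2.19 without that correction and 1.61 in the authors' processed values.

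The 4 Syngr1 probes split by the transcript they are annotated to. ILMN_3028575, annotated to the same RefSeq transcript as the brightest probe, went from 5.25 ± 0.34 to 8.56 ± 0.85 (SD, n = 6 each), a log2 difference of 3.31. It was detected on 1 control array and on all 6 MWCNT arrays, and its groups did not overlap. The pair of probes annotated to a different Syngr1 transcript stayed near background. ILMN_2652711 was detected on no array, with means of 4.78 ± 0.07 and 4.98 ± 0.19. ILMN_2657751 was detected on 2 MWCNT arrays and no control array, with means of 4.78 ± 0.23 and 5.15 ± 0.29. Groups overlapped for both, and neither was detected on the 3 arrays needed to enter the comparison. Probes differ in how well they hybridise, so their levels were not set against each other.

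Eno2, like Npy, was detected on no control array and on every MWCNT array. Its single probe, ILMN_2763002, had control levels from 4.76 to 5.17 with a median of 4.91. On MWCNT arrays 1 to 6 the levels were 6.73, 6.31, 6.59, 6.59, 6.11 and 7.05. The groups did not overlap, and here array 6 was the highest while array 5 was again the lowest. The means were 4.93 ± 0.14 and 6.56 ± 0.33 (SD, n = 6 each), a difference of 1.64 ± 0.14 (SE, log2) and a fold of at least 2.14. Without arrays 5 and 6 it was 1.63.

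Kif1a was detected on all 12 arrays by both of its probes. The brighter, ILMN_1233840, had control levels from 7.35 to 7.94 with a median of 7.64, and levels of 9.47, 9.25, 10.22, 9.83, 8.20 and 8.55 on MWCNT arrays 1 to 6. The lowest MWCNT array stood 0.26 above the highest control array, the narrowest gap of the 4 brightest probes. The means were 7.62 ± 0.23 and 9.25 ± 0.76 (SD, n = 6 each), a 3.11-fold difference (1.64 ± 0.29 SE, log2), and without arrays 5 and 6 the difference was 2.08. The second probe, ILMN_2965896, went from 6.16 ± 0.35 to 6.54 ± 0.53, a difference of 0.38, or 0.67 without arrays 5 and 6. On that probe the groups overlapped, with control array 1 at 6.80 and MWCNT levels from 5.84 to 7.19. The mean of both probes differed by 1.01.

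**Figure D1:**
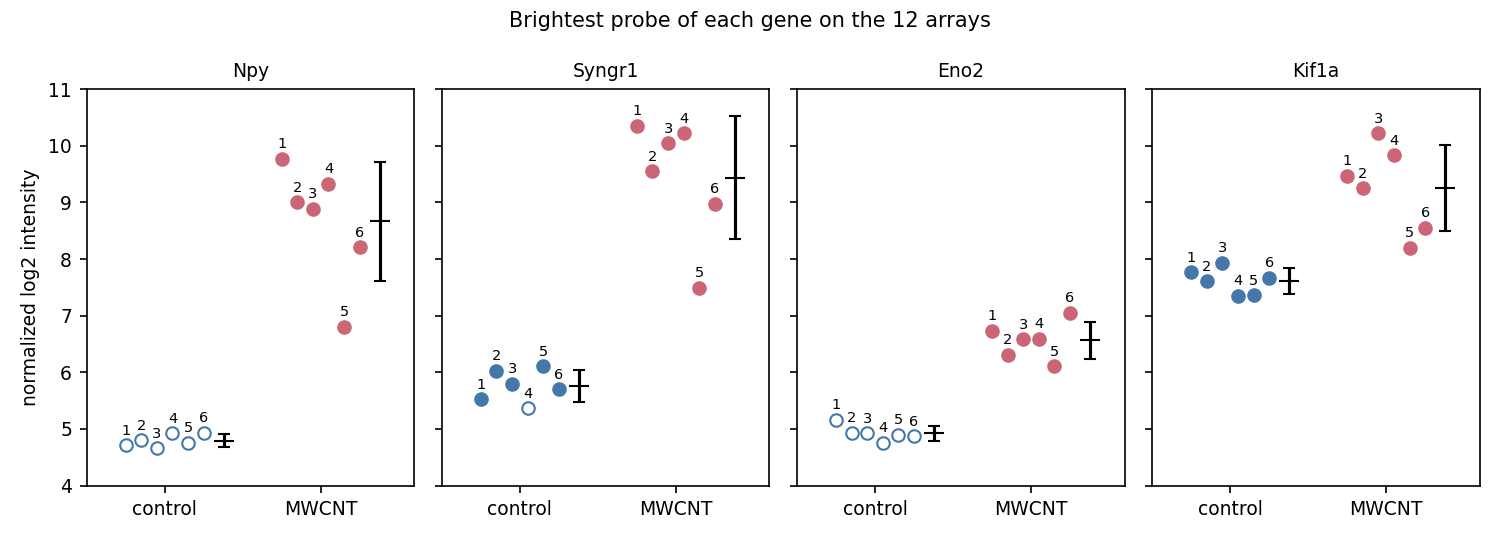
Normalized log2 intensity (vertical axis) of the brightest probe of Npy, Syngr1, Eno2 and Kif1a on 6 control and 6 MWCNT arrays. Each point is an array with its replicate number, open points mark arrays where the probe was not detected, and the bar gives the mean and SD. MWCNT array 5 is the lowest of its group in all 4 panels.

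**Figure D2:**
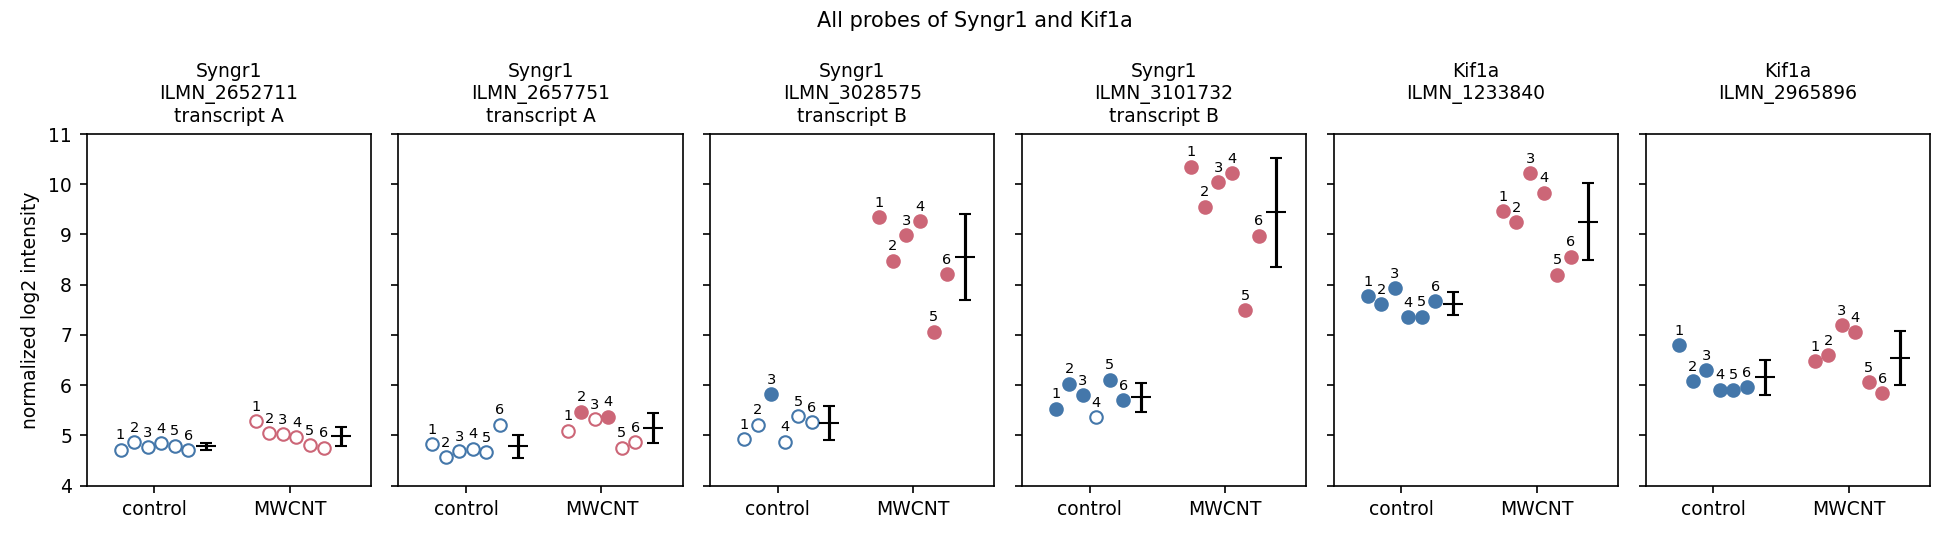
Normalized log2 intensity of the 4 Syngr1 probes and the 2 Kif1a probes on each array, drawn as in the plot of the brightest probes, with A and B standing for the RefSeq transcript a Syngr1 probe is annotated to. The 2 probes of transcript B separate the groups, while those of transcript A stay near background.

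Across the 8 probes, 5 had every MWCNT array above every control array, including the brightest probe of each of the 4 genes. Among all 13210 features in the comparison, 4.07% showed this pattern, and since the genes were chosen on this contrast nothing is read from the difference. In the authors' processed values the difference of the brightest probe was 1.25 for Npy, 1.61 for Syngr1, 0.29 for Eno2 and 0.95 for Kif1a on the log2 scale. Those values rest on a floor of 200.3 in every column, near which low signals are compressed.

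How the genes varied among the MWCNT mice was not used to choose them. Npy and Eno2 entered the comparison only through their detection on MWCNT arrays, and pairs of other raised genes were not correlated. The correlations below therefore do not show a relation particular to these genes. Npy and Syngr1 followed each other most closely, with a Pearson correlation of 0.978 over the 6 MWCNT arrays (exact two-sided permutation p = 0.00278, adjusted over 6 pairs p = 0.0167). Spearman's rho was 0.943 (exact p = 0.0167, adjusted p = 0.1), and Pearson's r was 0.893 without arrays 1 and 5, the arrays farthest from the median of Npy, and 0.715 without arrays 5 and 6. Over those last 4 arrays Syngr1 and Eno2 had the highest r, 0.977, so the place of Npy and Syngr1 as the closest pair rests on arrays 5 and 6. The permutation test treats the 6 arrays as exchangeable, although arrays 5 and 6 stood apart. For Syngr1 and Kif1a r was 0.875 (exact permutation p = 0.0139, adjusted p = 0.0417) and rho 0.771 (exact p = 0.103, adjusted p = 0.308). That relation fell to an r of 0.385 without arrays 5 and 6, so it rests on them. Npy and Kif1a gave r = 0.779 and rho = 0.6 (exact permutation p = 0.0611 and 0.242, adjusted p = 0.122 and 0.483), and r = 0.739 without arrays 1 and 5. Without arrays 5 and 6 that r was -0.369 over 4 arrays, so this relation rests on them too.

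No pair that included Eno2 passed in the 6 arrays. Its r was 0.432 with Npy, 0.462 with Syngr1 and 0.168 with Kif1a, with exact permutation p of 0.393, 0.351 and 0.75 (adjusted p = 0.472, 0.472 and 0.75). The matching rho values were 0.371, 0.429 and 0.2 (exact p = 0.497, 0.419 and 0.714, adjusted p = 0.597, 0.597 and 0.714). Leaving out the 2 arrays farthest from the median of the first gene of each pair moved r to -0.785, 0.977 and 0.394, each over 4 arrays. Without arrays 5 and 6 the 3 values were 0.694, 0.977 and 0.394. Arrays 5 and 6 held the lowest levels of Npy, Syngr1 and Kif1a, but the lowest and the highest level of Eno2.

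The genes whose profile over all 12 arrays was nearest to each of the 4 were found by the mean absolute difference between centred log2 profiles, over 9851 named genes. Nearest to Npy were Syngr1 (0.24), Arg1 (0.36), which encodes an arginine-degrading enzyme of alternatively activated macrophages, and Cd163l1 (0.40), a scavenger receptor family gene. Nearest to Syngr1 were Npy (0.24), Arg1 (0.32) and S100a9 (0.41), a subunit of calprotectin. Nearest to Eno2 were Slc11a1 (0.16), a metal transporter of phagosomes, Mreg (0.17), which encodes melanoregulin, and Il1r2 (0.19), a decoy receptor for interleukin-1. Nearest to Kif1a were Igf1 (0.16), a growth factor, Hoxb7 (0.19), a homeobox factor, and Cldn23 (0.21), a claudin. The measure follows the group difference that chose the genes, so these neighbours are a description.

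Most genes of the same pathways did not pass the test between the groups. Of 153 genes in 7 lists of partners and relatives of the 4 genes, which leave out the 4 themselves, 137 were on the array and 85 were measured. In the comparison of the groups by limma with Benjamini-Hochberg adjustment over all features, 4 of the 85 rose and 3 fell at an adjusted p under 0.05, and 78 did not pass. That is 8.24% called, against 12.9% of all 13210 features, of which 6.98% rose and 5.89% fell. The median log2 difference was 0.03 for the 85 genes and -0.02 for all features. Single lists hold few genes, so their counts below are a description to be read beside these shares. Without MWCNT arrays 5 and 6, 6 rose and 4 fell, against 950 and 649 of 12936 features. The split depends on the scaling. With arrays scaled to the median of all probes in place of quantiles, 13 related genes rose and 1 fell, against 1688 and 214 of all features. With arrays scaled to the kept probes' median, 3 related genes rose and 11 fell, against 809 and 1861 of all features.

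Few other genes of the neuropeptide Y system were detected. Its sister ligands Pyy and Ppy, the receptors Npy1r, Npy2r, Npy5r and Npy6r, and the peptidases Mme and Fap were detected on no array, 8 of the 11 genes listed. Npy4r was detected on 1 MWCNT array and was not tested. Dpp4, a membrane peptidase that trims neuropeptide Y and so changes its receptor preference, rose from 5.65 ± 0.19 to 7.02 ± 0.59 (SD, n = 6 each), 2.59-fold, with no overlap of the groups (limma adjusted p = 0.00137). Xpnpep1, an aminopeptidase that cleaves before proline, had a difference of 0.03 (limma adjusted p = 0.795).

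Genes that make and store peptide hormones were mostly not detected. Of 15 listed genes on the array, 9 were detected nowhere, including the prohormone convertase Pcsk1, the carboxypeptidase Cpe and the granins Chga, Chgb and Scg2. Both measured genes missed the threshold. Furin, a convertase of the secretory pathway of most cells, differed by 0.01 and Pam, the peptide-amidating enzyme, by 0.03 (limma adjusted p = 0.948 and 0.895).

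None of the 5 measured relatives of Syngr1 rose, too few genes to set against the 6.98% of all features that rose. Syp, which encodes synaptophysin of synaptic vesicles, was the 1 of 5 measured relatives that changed, and it fell from 9.79 ± 0.14 to 9.20 ± 0.24 (SD, n = 6 each; limma adjusted p = 0.00311). The differences were 0.03 for Syngr2, 0.21 for Syngr4, 0.13 for Sypl and -0.02 for Sypl2, with limma adjusted p from 0.313 to 0.952. Syngr3 and Synpr were detected on no array. Of 18 other measured genes of vesicles and exocytosis, Unc13d, which primes secretory granules in blood cells, rose at least 1.52-fold (limma adjusted p = 0.00155) and was detected on no control array. The remaining 17 did not pass, with Stxbp2, a syntaxin-binding protein of granule secretion, at -0.004 (limma adjusted p = 0.98). Snap25 and Syt1, the SNARE protein and the calcium sensor of neurotransmitter release, were among 15 of 35 genes detected on no array.

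Of the relatives of Eno2 in glycolysis, 2 of 18 measured genes passed the test. Eno3, the muscle enolase, differed by 0.03 (limma adjusted p = 0.892) and Eno4 was detected on no array. No probe was matched to Eno1, the enolase of most tissues, so it was not analysed here. Pgam1, phosphoglycerate mutase, rose from 9.50 ± 0.23 to 10.03 ± 0.19 (SD, n = 6 each; limma adjusted p = 0.00865). Hk3, a hexokinase of myeloid cells, rose by 0.35 (limma adjusted p = 0.0458), and this call was lost in 13 of 25 other settings. The other 16 did not pass, and Gapdh stood at a difference of 0.02 (limma adjusted p = 0.875).

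No other kinesin-3 motor passed the test upward, although Kif1c did so in 3 of 25 other settings, scaling to the median of all probes among them. Kif13a, a motor of endosomal and recycling traffic, was the 1 of 30 measured kinesin genes and adaptors that changed. It fell by 0.22 (limma adjusted p = 0.0343), with every MWCNT array below every control array, but the call was lost in 9 of 25 other settings. The differences of Kif1b, Kif13b and Kif16b were -0.11, 0.003 and -0.01 (limma adjusted p = 0.328, 0.988 and 0.967). Kif1c had 3 measured probes that disagreed, with the brightest at 0.48 (limma adjusted p = 0.0848) and the others at -0.06 and -0.35. Kif23, a motor of cell division, differed by 0.07 (limma adjusted p = 0.644).

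REST could not be followed, because Rest was detected on no array. Of 10 measured genes of its corepressors and cofactors, Rcor3, a CoREST subunit, fell by 0.43 (limma adjusted p = 0.0295), a call lost in 9 of 25 other settings. The other 9 did not pass, among them Ehmt2, a histone H3 lysine methyltransferase, at -0.29 (limma adjusted p = 0.0633), which was called lowered in 6 of 25 other settings.

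Most markers of neurons were not detected. Of 29 pan-neuronal markers on the array, 16 were detected on no array, including Rbfox3, Nefl, Nefm, Stmn2, Snap25, Syt1, Th and Dbh. A marker detected on no array is not shown to be absent, since the resident macrophage markers Siglecf and Fabp4 were also detected on none. Of the 10 measured, 1 rose, 2 fell and 7 did not pass. Thy1, which T cells also carry, rose 4.42-fold (limma adjusted p = 0.000196), while Syp and Celf4, an RNA-binding protein, fell (Celf4 by 0.47, limma adjusted p = 0.00307). The call of Celf4 was lost with scaling to the median of all probes. The summed level of the measured neuronal markers was 4947 to 5586 in controls and 4288 to 6343 after MWCNT. The name neuronal-type thus describes where these 4 genes are best known, and most markers of neurons were at background in these cells, while Syn1, Syp, Celf4, Elavl4 and Thy1 were detected on all 12 arrays. Syn1, which encodes synapsin-1 of synaptic vesicles and was singled out after its values were seen, was at 11.72 ± 0.11 in controls and 11.49 ± 0.22 after MWCNT (SD, n = 6 each; limma adjusted p = 0.165), and it made up 65.1% of the summed control level.

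Most markers of pulmonary neuroendocrine and glial cells were also below detection. Of 12 neuroendocrine markers on the array, 9 were detected nowhere, including Chga, Grp and Insm1, and their summed level was 789.7 to 1001 in controls and 507 to 788 after MWCNT. The 2 measured markers were Syp, which fell, and Resp18, which did not pass. Of 9 glial markers, 6 were detected nowhere, including Sox10, Gfap and S100b. Pmp22, a myelin protein that other cells also make, rose 3.80-fold (limma adjusted p = 8.91e-05), and the summed level was 1516 to 2225 in controls and 1855 to 2041 after MWCNT. Syp made up 96.3% of the neuroendocrine sum in controls, and Mbp, which did not pass, 95.7% of the glial sum.

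Many markers of other leukocytes also rose after MWCNT, and their relation to the 4 genes across arrays was not tested. Of 15 measured T and NK cell markers, 12 rose, among them Il7r (5.21-fold, limma adjusted p = 3.1e-05) and Icos (3.44-fold, limma adjusted p = 6.87e-05). Their summed level was 11390 to 13260 in controls and 12020 to 16460 after MWCNT, with Cd4, Cd5, Cd8a and Ncr1 detected on no array. Of 8 measured B and plasma cell markers 6 rose, among them Fcmr, at least 6.99-fold (limma adjusted p = 0.00289), and Cd79b, at least 4.29-fold (limma adjusted p = 0.00399). Their sum was 13490 to 16180 in controls and 13360 to 16860 after MWCNT, with Pax5 and Jchain detected nowhere. Each sum is mostly that of a few bright genes that did not pass, Cd2 (59.5%) and Cd8b1 (33.8%) of the T and NK cell sum in controls and Xbp1 (93.3%) of the B and plasma cell sum, so the sums do not follow the markers that rose. Mbp, Cd2, Cd8b1, Xbp1 and the genes named below for their share of a sum were named after their values were seen.

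Of 8 measured neutrophil markers 4 rose, with S100a9 at least 6.29-fold higher (limma adjusted p = 3.72e-06) and Il1r2 at least 1.55-fold higher (limma adjusted p = 5.2e-05). The neutrophil sum was 2695 to 4220 in controls and 4486 to 8278 after MWCNT, while Mpo, Elane, Camp, Ngp and Mmp8 were detected nowhere. Of 18 measured markers of monocyte-derived macrophages 11 rose, with the smallest adjusted p for Gpnmb (1.92-fold, limma adjusted p = 2.3e-05) and C1qb (3.77-fold, limma adjusted p = 5.58e-05), with a sum of 89810 to 95670 in controls and 100900 to 108100 after MWCNT. Itgam, Maf and Vcan were detected on no array. Lyz2 and Lyz1, which did not pass, made up 35.4% and 34% of the monocyte-derived macrophage sum in controls. Of 12 measured resident macrophage markers 2 rose and 2 fell. Cidec (0.67 times the control level, limma adjusted p = 0.000243) and Krt79 (0.70 times, limma adjusted p = 0.000631) fell. Car4 (1.28-fold, limma adjusted p = 0.0179) and Marco (1.36-fold, limma adjusted p = 0.0442) rose. The sum of the 12 markers was 134700 to 142000 in controls and 122700 to 136200 after MWCNT.

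Array 5, the lowest of the MWCNT arrays for all 4 genes, was also the lowest for these leukocyte markers. As a mean log2 difference from controls, the T and NK cell markers stood at 0.74 on array 5 and at 1.27 to 2.11 on the other MWCNT arrays. The B and plasma cell markers stood at 0.19 on array 5 and at 1.24 to 3.00 on the others, the neutrophil markers at 0.46 and 0.74 to 1.21, and the monocyte-derived macrophage markers at 0.41 and 0.67 to 1.03. Array 5 was also the lowest MWCNT array for every other marker list except the pan-neuronal and resident macrophage markers. It stood at 0.21 for dendritic cell, 0.03 for epithelial and 0.22 for endothelial and fibroblast markers. The low level on array 5 was thus not particular to leukocyte markers. The part of any of these cell types in the levels of Npy, Syngr1, Eno2 and Kif1a was not tested.

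Markers of further cell types rose in part. Of 11 measured dendritic cell markers 6 rose, with the smallest adjusted p for the chemokine Ccl17 (2.49-fold, limma adjusted p = 5.45e-05) and the homing receptor Ccr7 (2.37-fold, limma adjusted p = 0.000249), with a sum of 11440 to 14010 in controls and 13050 to 15440 after MWCNT. Flt3 and Xcr1 were detected on no array. H2-DMb2, which did not pass, made up 58.7% of the dendritic cell sum in controls. Of 12 measured epithelial markers 4 rose, with the smallest adjusted p for Hopx (2.17-fold, limma adjusted p = 6.87e-05) and the secretoglobin Scgb3a1 (4.57-fold, limma adjusted p = 0.000789). Their sum ranged widely, from 3002 to 13800 in controls and from 8254 to 29520 after MWCNT, and Epcam and Krt5 were detected nowhere.

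Of 3 measured eosinophil, basophil and mast cell markers 2 rose, the histamine-forming enzyme Hdc 3.38-fold (limma adjusted p = 0.000527) and the receptor Kit 1.88-fold (limma adjusted p = 0.00247). Their sum was 239.1 to 316.9 in controls and 406.4 to 784.6 after MWCNT, and 10 of 15 markers, Epx and Cpa3 among them, were detected nowhere. Of 5 measured endothelial and fibroblast markers 2 rose, Dcn at least 1.18-fold (limma adjusted p = 0.00121) and Vwf 1.37-fold (limma adjusted p = 0.00664). Their sum was 1593 to 2160 in controls and 2220 to 2747 after MWCNT, with Cldn5, Col1a1, Col3a1 and 4 others detected nowhere. Of 6 measured platelet and erythroid markers 2 rose and 1 fell, with Pf4 1.83-fold higher (limma adjusted p = 0.00175) and Gp5 lower (limma adjusted p = 0.0288). Their sum was 503.8 to 9048 in controls and 1295 to 13010 after MWCNT, with Ppbp, Gp6 and 3 others detected nowhere. Hba-a1, which did not pass, made up 72% of this sum in controls.

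**Figure D3:**
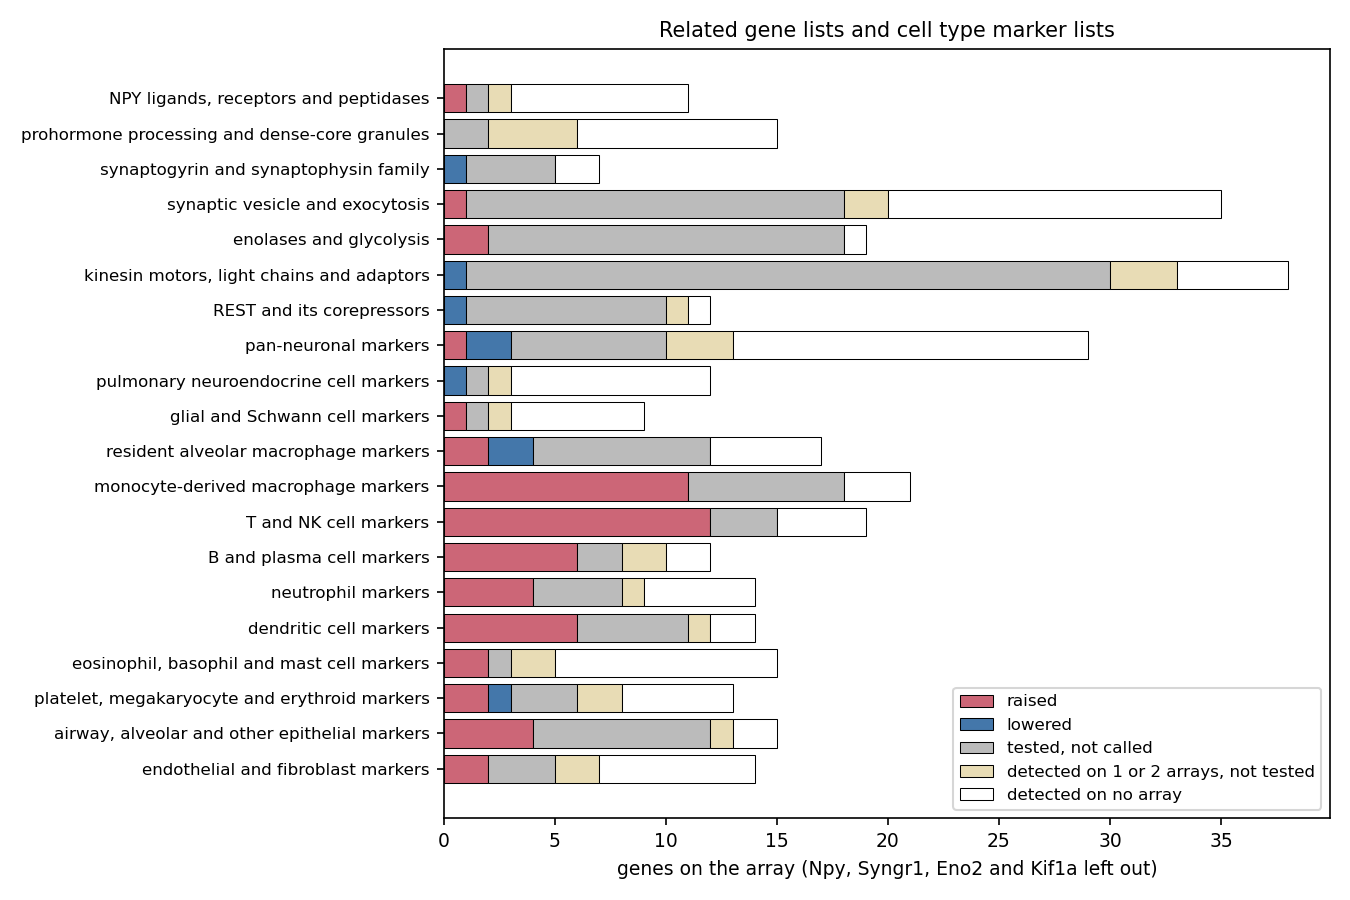
Number of genes on the array (horizontal axis) in each list of related genes and of cell type markers, split into those that rose, fell, did not pass, were detected on too few arrays to test, or were detected on no array. The pan-neuronal bar holds 16 genes detected on no array and 1 that rose, whereas 12 T and NK cell markers rose.

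**Figure D4:**
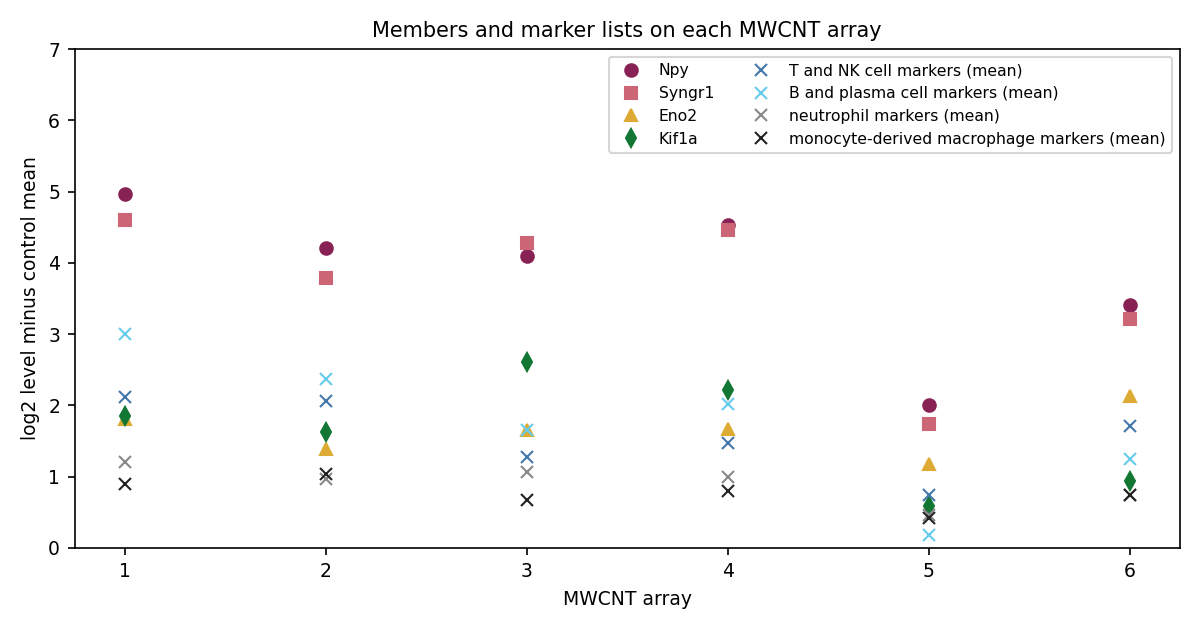
Log2 level minus the control mean (vertical axis) of the 4 genes and of the mean of 4 leukocyte marker lists on each of the 6 MWCNT arrays (horizontal axis). Array 5 is the lowest array for each of the 4 genes and each of the 4 lists.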

How the data were processed

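RNA of 12 mice was measured on 1 array each. Per the file headers, the deposited scanner table gives every probe a linear intensity with no background removed and a detection p-value per array. The deposited detection p-value sets the probe against that array's negative controls. Per the submitters' processing notes, the authors used lumi to make the processed intensity matrix, with settings not given in the sources used here. That matrix is linear, has a median of 227.8 in every column, and each column matched its own array at a rank correlation of 1.00. The origin of its offset is unknown.

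In R 4.3.3 with limma 3.58.1, neqc corrected background, added 16, quantile-normalized and took log2. Probes detected on at least 3 arrays were kept (19291), and each gene was represented by the brightest of its kept probes, giving 10143 genes and 3067 unnamed probes. Of all probes, 34885 had 1 symbol, 18 several and 10378 none, and 34807 matched RefSeq. Groups were compared by lmFit and eBayes, two-sided, without covariates. Pairs of genes were tested in Python 3.11.15 with SciPy 1.17.1. The fit was tested on simulated data.

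The 4 genes and the lists were chosen with earlier results of these data known. Genes named are the 4 with all probes, up to 4 called genes of each related list by smallest adjusted p, its brightest gene not called, the gene families, up to 2 called markers of each marker list, and 3 nearest profiles per gene. Car4 and Marco were named in addition, after their values were seen. Alternatives covered background, normalization, filter, probe rule, variances, array weights, replicate block and left-out arrays, with scaling to the median of kept probes added after seeing the data. The 6 arrays per group limit the precision.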

Additional observations from a re-analysis of the deposited data

Results flagged for a closer look

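Of 68 groups of 6 arrays checked among the named genes and probes, 2 held an array far from the others, where chance flags about 1 in 20 groups. Control array 1 had Syngr2 at 9.75, below the next lowest control array at 10.59. MWCNT array 4 had Kif13b at 9.61, above the next highest MWCNT array at 9.40. Neither gene passed the threshold between the groups.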

How the results depend on the processing

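The 4 increases kept their direction in every setting that gave a value, but their size followed the background correction. The genes were chosen for these increases in the same arrays, and the groups did not overlap on their brightest probes. The kept direction was thus largely fixed in advance and is no separate evidence for the increases. Without background correction the log2 difference was 1.89 for Npy, 2.19 for Syngr1 and 0.54 for Eno2, and with normexp and an offset of 50 it was 2.65 for Npy and 0.90 for Eno2. The authors' processed values gave 1.25, 1.61 and 0.29. Leaving out each array in turn gave 3.63 to 4.25 for Npy, 3.49 to 4.08 for Syngr1, 1.53 to 1.73 for Eno2 and 1.45 to 1.85 for Kif1a. Npy, Syngr1 and Eno2 have no value where detection on all 12 arrays is required.

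Of all features 1700 were called, 922 raised and 778 lowered, and 1111 with detection on all 12 arrays, where fewer features are tested. Scaling to the median in place of quantiles shifted the median of all features to 0.10 and gave 1688 raised and 214 lowered. Scaling to the kept probes' median, chosen after seeing the data, shifted it to -0.10 and gave 2670 calls, 809 raised and 1861 lowered. The 7 calls among related genes became 14 under both scalings, 13 raised and 1 lowered in the first and 3 raised and 11 lowered in the second, and 11 in the authors' values. The cause was not tested. Leaving out 1 array gave 1352 to 1689 calls over all features and 4 to 8 among related genes, with 4 without control array 2, control array 3 or MWCNT array 3. Correlated pairs, 2 of 6, became 1 without background correction, with normexp and in the authors' values, and 0 without any 1 MWCNT array. With 5 arrays a single pair can reach no adjusted p below 0.05 in the permutation test, although 2 pairs together could. These 0s thus give only limited information about stability.

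The groups share replicate numbers, but each array is a separate mouse, and the labels name no pairing. After removal of the group means, same-numbered arrays correlated at -0.18 to 0.15. For control arrays 2, 5 and 6 the best-correlated MWCNT array was the one of the same number. These values cannot decide whether same-numbered arrays were handled together. With the number as a replicate block, 1488 features and 6 related genes were called, the latter 5 raised and 1 lowered against 4 and 3 without it. Among the related genes named here, Kif13a, Rcor3 and Hk3 were lost and Kif1c gained, which does not account for all of the raised calls. The differences of the 4 genes were the same, 3.87 for Npy.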
